A study of Mus musculus with 9 samples.

Results

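The respiratory chain genes encoded in the nucleus were described complex by complex in the aorta of atherosclerotic mice. They were taken from the deposited expression table as protein-coding entries whose symbol begins with Nduf, Uqcr, Cox4 to Cox8 or Atp5, or is Sdha, Sdhb, Sdhc or Sdhd. This rule gave 94 of 54532 entries, and 91 of them were among the 13883 genes that passed a filter on low values (at least 1 FPKM in at least 3 of the 9 libraries). The table is in FPKM, a fragment number divided by the length of the gene and by a size figure for the library. By role, 36 entries encode complex I subunits (7 core and 29 accessory), 8 complex I assembly factors, 4 complex II, 8 complex III, 18 complex IV and 18 complex V. Ndufa4 and its homolog Ndufa4l2 make up the remaining 2 and are kept apart, because the NDUFA4 protein carries a complex I name but is found in complex IV. The entries below the filter were the testis isoforms Cox7b2 (0.221 FPKM in HFD_2 and 0 elsewhere) and Cox8c (0 in all libraries) and a second entry of Atp5o (0 in all libraries).

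The respiratory chain sits in the inner mitochondrial membrane. Complexes I and II take electrons from NADH and succinate, complex III passes them through cytochrome c to complex IV, which reduces oxygen, and complex V makes ATP from the proton gradient that results. Most subunits are nuclear genes, the membrane core of several complexes is encoded by mitochondrial DNA, and iron-sulfur clusters and hemes carry the electrons. Several complex IV subunits have a second gene used mainly in muscle, brown fat, lung or testis.

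All mice lacked Apoe (Apoe-/-) and so lack the apolipoprotein that clears remnant particles. They entered a regimen of 24 weeks at an age of 6 to 8 weeks and were fed chow (the CD group) or a high fat diet (HFD), or had that diet together with ammonium iron(III) citrate injected into the peritoneum (HFD_IO). There were 3 aortas per group, and no mouse with a working Apoe gene and no chow-fed mouse given iron was analysed here. The labels do not say whether each aorta came from a separate mouse, so the p-values measure the spread between these libraries.

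The reads recovered from the table numbered 16660963 to 18308450 per library. The size figure by which the FPKM were divided was not this number. It was 1.84e+07, 1.76e+07 and 1.82e+07 in CD, above the reads of each CD library. In HFD it was 1.75e+07, 1.67e+07 and 1.62e+07, with 18158642 reads in HFD_3, and in HFD_IO 1.85e+07, 1.74e+07 and 1.77e+07. This scaling raises FPKM in HFD_3 and lowers them in CD_1, and its origin is not given. Smooth muscle markers summed to 5338 to 5958 FPKM in CD, against 6871 to 8005 in HFD and 2460 to 4205 in HFD_IO, so the labelled tissue carried its defining transcripts. Macrophage markers summed to 561 to 648, 2820 to 4738 and 4538 to 7757 FPKM in these groups, and endothelial markers to 381 to 557, 119 to 231 and 250 to 293. Whole aortas were sequenced, and a lower level can mean fewer cells of a type or less RNA per cell, which cannot be told apart. One library stood apart: HFD_3 held the highest value of all 9 libraries for 83 of the 91 tested members, and CD_1 held the highest of its group for 73. Counts of members without each of these libraries are given after the comparisons.

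Promoter letters were examined because the members moved together. RefSeq windows of 300 bases around the start (build GRCm38.p6) matched 74 of the member symbols, with 79 windows. The letters GCGCANGCG, which resemble the site of the factor NRF1, were on either strand of 29.1% of member windows, beside 6.25% of all 32851 windows. CCGGAAGT, as bound by GABPA, was in 6.33% beside 3.89%, and AAGATGGCG, as bound by YY1, in 10.1% beside 1.40%. By complex, any of these letters occurred in 41.2% of complex I windows, 66.7% of complex II (2 of 3 windows), 60% of complex III (3 of 5), 15.4% of complex IV and 56.3% of complex V, beside 10.6% of all windows. Across all member windows 41.8% (33 of 79) held one, and those of Ndufa1 and Ndufb6, which also rose, held none. None of the 5 windows of isoform genes (Cox6b2, Cox7a1, Cox7b2, Cox8b and Ndufa4) held one, too few windows to differ from 10.6%. A link between these letters and the changes was not tested. The stretches below lie before the gene as the table places it, read 5′ to 3′, and are shown because Sdha, Sdhd and Uqcr11 carry such letters (in capitals) while Cox7a1 and Cox8b, the members with the largest changes, carry none in these bases. They lie at chr13:74350281-74350360 (minus strand), chr9:50603850-50603969 (minus), chr10:80406831-80406941 (minus), chr7:30184051-30184143 (plus) and chr7:140900447-140900566 (minus).
Sdha: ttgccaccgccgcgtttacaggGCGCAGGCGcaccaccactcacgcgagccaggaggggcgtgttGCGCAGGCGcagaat
Sdhd: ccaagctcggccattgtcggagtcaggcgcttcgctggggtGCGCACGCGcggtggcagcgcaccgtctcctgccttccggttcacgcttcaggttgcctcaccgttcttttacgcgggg
Uqcr11: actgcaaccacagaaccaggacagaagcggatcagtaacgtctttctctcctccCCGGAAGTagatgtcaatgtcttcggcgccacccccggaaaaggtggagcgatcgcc
Cox7a1: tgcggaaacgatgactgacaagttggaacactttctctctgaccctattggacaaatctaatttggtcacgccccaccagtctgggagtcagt
Cox8b: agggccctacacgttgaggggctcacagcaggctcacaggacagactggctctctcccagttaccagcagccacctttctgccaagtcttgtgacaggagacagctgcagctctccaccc

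The first comparison asked how the chain differed between the high fat diet and chow. Of the 91 tested members 69 rose in HFD (limma on log2(FPKM + 1), adjusted p under 0.05), with a median log2 change of 0.71, and none fell. Over all tested genes 21.8% were higher and 17.6% were lower in this comparison, with a median of 0.06. At an unadjusted p under 0.05 there were 77 members higher and 1 lower. Voom on the recovered reads gave 72 higher and 0 lower. It took the size figures of the FPKM as library sizes, so it cannot check that scaling. Members rose in every complex: 30 of 36 in complex I (median 0.72), 4 of 4 in complex II (0.80), 7 of 8 in complex III (0.93), 11 of 16 in complex IV (0.90) and 13 of 17 in complex V (0.66). The assembly factors of complex I had 3 of 8 that rose, with a median of 0.33.

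The second comparison asked what the iron salt added to the diet, and HFD serves as its control as it served as the treated group above. Members fell in 74 of 91 cases in HFD_IO against HFD, with a median of -0.77, and none rose. Among all tested genes 14.5% were lower and 14.1% higher, with a median of -4.19e-05. At an unadjusted p under 0.05 84 members were lower and 0 higher, and voom gave 77 lower and 0 higher. The falls covered 32 of 36 complex I subunits (median -0.82), 5 of 8 assembly factors (-0.44), 3 of 4 in complex II (-0.64), 8 of 8 in complex III (-0.99), 12 of 16 in complex IV (-0.83) and 12 of 17 in complex V (-0.61).

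Between HFD_IO and CD, the third pairing, the median change was -0.10, with 36 of 91 members above 0. That sign depended on 1 library: without CD_1 the median was 0.07, with 60 of 91 above 0, and with the brown adipocyte markers as a covariate it was 0.05, with 53 above 0. Here 3 members were lower (Ndufa4l2, Cox6b2 and Ndufb2) and none higher, where 15.0% of all genes were lower and 17.5% higher. At an unadjusted p under 0.05 there were 4 lower and 2 higher, and voom also gave 3 lower and 0 higher. These comparisons share libraries, so their values stand side by side and are not independent of each other.

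**Figure D1:**
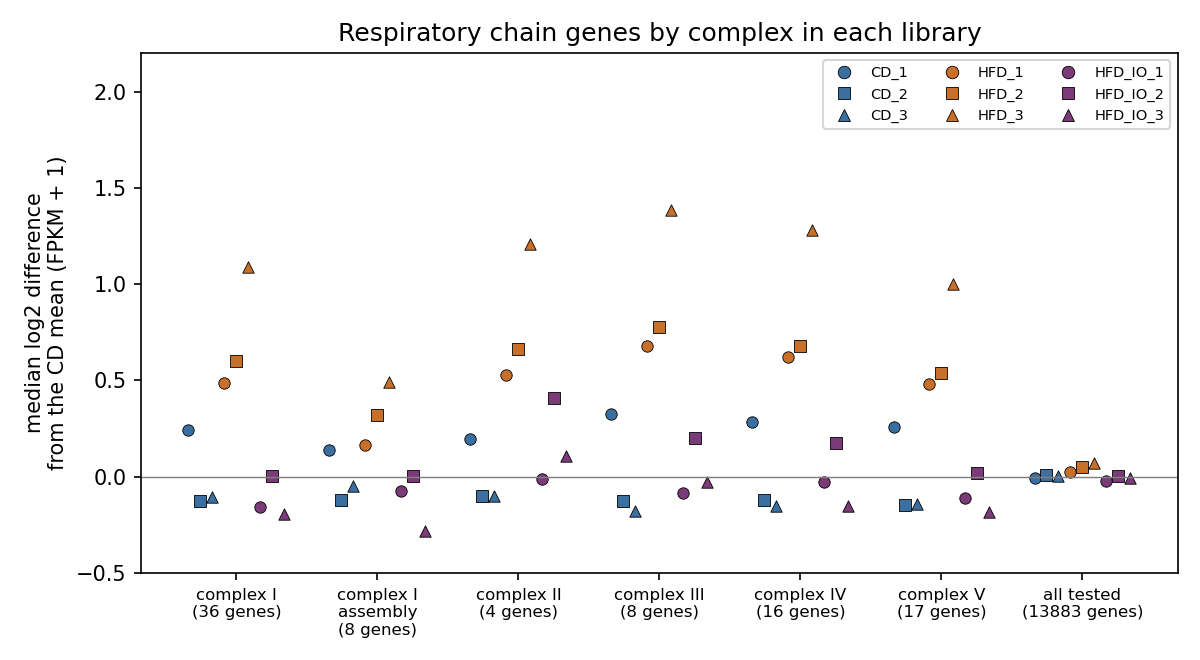
Median log2 difference of the tested members of each complex from their CD mean, on the log2(FPKM + 1) scale (vertical axis), 1 point per library, with all 13883 tested genes at the right. Across complexes HFD_3 is the highest library, CD_1 lies above CD_2 and CD_3, and the median of all tested genes stays near 0 in each library.

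In single libraries the median difference of all members from the CD mean was 0.24, -0.14 and -0.12 in CD_1, CD_2 and CD_3. It was 0.49, 0.60 and 1.06 in HFD_1, HFD_2 and HFD_3, and -0.12, 0.04 and -0.17 in HFD_IO_1, HFD_IO_2 and HFD_IO_3. The HFD libraries thus lay above all 6 others, and the CD and HFD_IO libraries overlapped. As a share of all FPKM, the members made up 1.92% ± 0.177 (SD, n = 3) in CD, 2.65% ± 0.425 in HFD and 1.58% ± 0.158 in HFD_IO. The plot of medians by complex shows the same order of libraries within HFD for each complex.

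The counts depended on single libraries and on marker levels. Without CD_2 or CD_3 there were 39 and 37 members higher in HFD against CD, and 79 without CD_1. Calls over all tested genes shifted too: 2071, 2043 and 3316 were higher in these fits, 2292 without HFD_3 and 3030 with all libraries. Without HFD_3 there were 50 members higher and 1 lower (Ndufa4l2): 23 of 36 rose in complex I, 3 of 4 in complex II, 6 of 8 in complex III, 7 of 16 in complex IV and 7 of 17 in complex V. Without CD_1 these were 34, 4, 8, 13 and 15. Without HFD_3, HFD_IO_1 or HFD_IO_3 there were 44, 44 and 46 members lower in HFD_IO against HFD, and 82 without CD_1. Over all tested genes 1093, 1237, 1430 and 2507 were lower in these fits, against 2013 with all libraries. By complex, 24, 1, 5, 6 and 4 members of complexes I to V fell without HFD_3, and 34, 3, 8, 13 and 16 without CD_1. Of the 40 risen members that the naming rule covers, 23 kept their rise in HFD against CD in each fit without 1 library, among them Atp5a1, Atp5b, Atp5g1, Cox5a, Cox5b, Cox6a1, Cox6b1, Cox7a1, Cox8a, Ndufa1, Ndufa4, Ndufa5, Ndufaf3, Ndufaf5, Ndufb6, Ndufs3, Ndufs8, Sdhc, Sdhd, Uqcr11, Uqcrc2 and Uqcrq. The other 17 lost it in at least 1 such fit. In HFD_IO against HFD 21 of the 40 that fell kept that call: Atp5g1, Atp5j2, Atp5k, Cox6a1, Cox6b1, Cox7a1, Cox7a2, Cox8b, Ndufa1, Ndufa4, Ndufa4l2, Ndufa5, Ndufaf3, Ndufaf5, Ndufb6, Ndufs3, Ndufs8, Sdhc, Uqcr10, Uqcr11 and Uqcrq. All 3 members lower in HFD_IO than in CD kept that call. With both CD_1 and HFD_3 left out, a choice made after seeing the data, 79 were higher in HFD against CD and 68 lower in HFD_IO against HFD. Over all tested genes these counts were 2973 and 1727. Rescaling to a fixed sum (TPM) moved the median of all genes to -0.30 in HFD against CD, 0.14 in HFD_IO against HFD and -0.23 in HFD_IO against CD. Relative to that shift the members' median was 0.62, -0.78 and -0.10, close to 0.65, -0.77 and -0.09 as deposited. Under TPM 30 members were higher and 2 lower in HFD against CD (Ndufa4l2 and Atp5s), among 1018 genes higher and 4948 lower in all against 3030 and 2440 as deposited. For HFD_IO against HFD the genes higher and lower under TPM were 2373 and 1160, against 1956 and 2013, and for HFD_IO against CD 1528 and 3800, against 2427 and 2089.

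Marker lists of other tissues moved with the members in part. The lists are short, and their counts stand beside 21.8% of all tested genes higher and 17.6% lower in HFD against CD. In HFD_IO against HFD 14.5% of all tested genes were lower. Of 9 tested brown adipocyte markers 4 rose and 2 fell in HFD against CD, and 3 fell in HFD_IO against HFD. Over all 10 listed markers, tested or not, the summed FPKM was 165 to 249 in CD, 307 to 634 in HFD and 119 to 168 in HFD_IO. None of the 10 was at 0. The markers that rose were Ucp1 (2.10), Elovl3 (2.18), Otop1 (1.20) and Letmd1 (0.58), and those that fell with the diet were Dio2 (-1.88) and Prdm16 (-0.94). In HFD_IO against HFD Ucp1 (-2.50), Elovl3 (-2.41) and Otop1 (-0.97) fell, while Kcnk3, Prdm16 and Slc27a2 were at 0.51, 0.31 and 0.10 without passing. Elovl3 was at 1.30, 10.2 and 9.10 FPKM in HFD and below 1 FPKM in every CD and HFD_IO library. It passed the filter only through HFD, where it is high, so its rise and fall add no support to these counts. White adipocyte markers, of which 2 of 8 rose and then 2 fell, summed to 449 to 1003, 1003 to 2656 and 278 to 1683 FPKM. Skeletal muscle markers had 2 of 5 tested that rose and none that fell in HFD_IO against HFD. All 11 listed summed to 4.77 to 11.2 FPKM in CD, 6.68, 108 and 65.3 in HFD_1, HFD_2 and HFD_3, and 4.45 to 15.5 in HFD_IO. Myh2, a fast muscle myosin, was at 0 in CD_1, CD_2, HFD_1, HFD_IO_1 and HFD_IO_3. Erythroid markers (0 of 5 rose, then 4 fell) summed to 4677 to 12373, 8323 to 26098 and 2572 to 4150 FPKM.

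With the mean of the brown adipocyte markers as a covariate the members' median was 0.39 in HFD against CD with 14 higher, and -0.32 in HFD_IO against HFD with 0 lower. With the skeletal muscle markers it was 0.56 with 3 higher and -0.62 with 3 lower. Those fits also called fewer genes in all: 1446 and 1072 were higher and lower in HFD against CD with the first covariate and 799 and 518 with the second. In HFD_IO against HFD they were 45 and 29, and 507 and 457. The markers differ between the groups themselves, so diet or iron and the share of fat or muscle in a sample cannot be told apart.

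**Figure D2:**
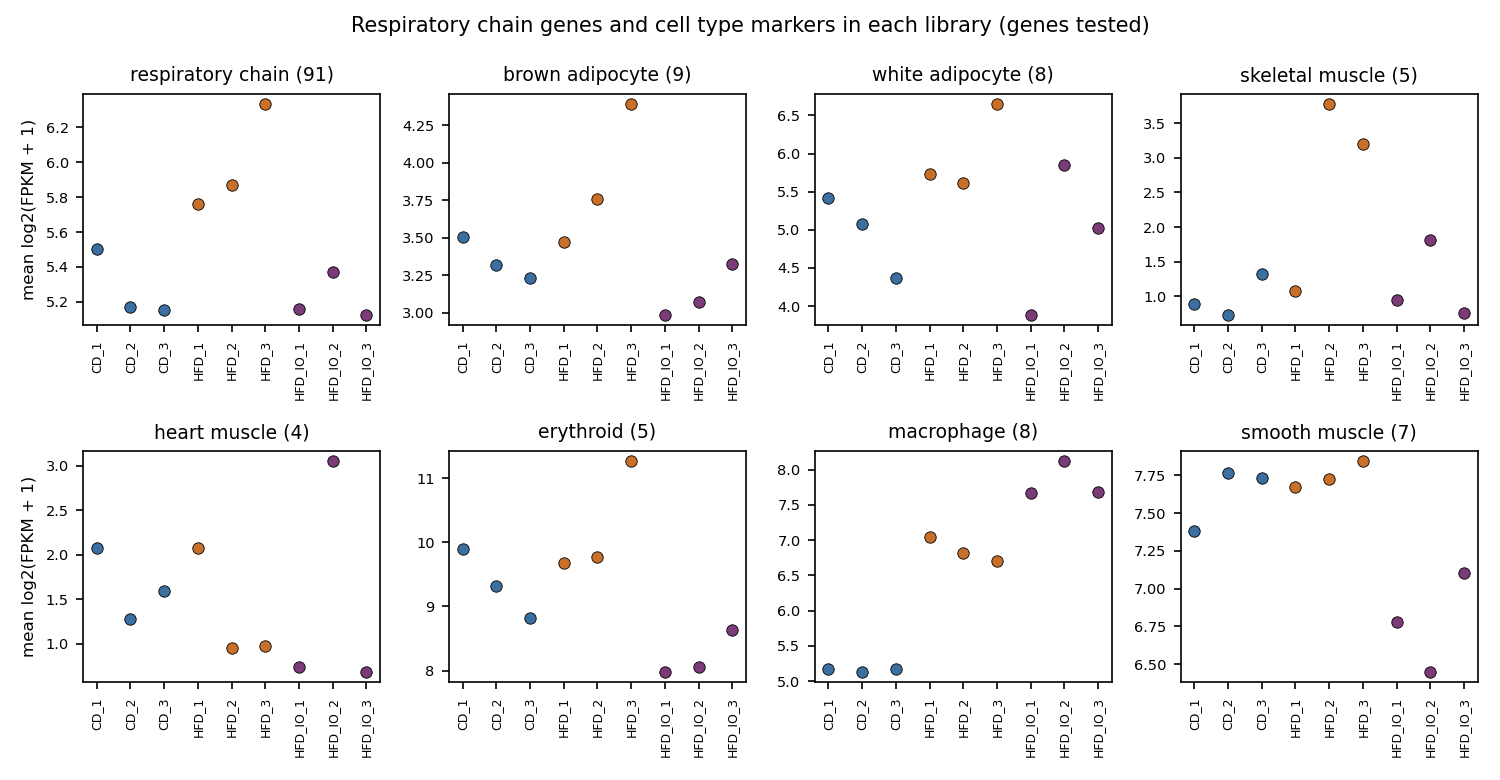
Mean log2(FPKM + 1) of the tested members and of 7 marker lists in each library (the number of genes tested stands in each title, and vertical scales differ). HFD_3 is highest for the respiratory chain, brown and white adipocyte, erythroid and smooth muscle lists, while macrophage markers are higher in all HFD_IO than in all HFD libraries.

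Complex I feeds electrons from NADH into the chain. Its 7 core subunits in the table include those that hold the flavin and the iron-sulfur clusters, and 6 of them rose in HFD against CD (median 0.69) while 5 fell in HFD_IO against HFD (median -0.75). Ndufv1, which binds NADH and the flavin, was at 43.1, 43.8 and 34.5 FPKM in CD, against 60.7, 61.7 and 102 in HFD and 34.6, 49.0 and 45.5 in HFD_IO. Every HFD library was above the other 6. It rose by 0.83 (SE 0.22, adjusted p = 0.0158) and then fell by 0.75 (SE 0.22, adjusted p = 0.0308). The rise was lost without CD_3 (0.0598), and the fall without HFD_3 (0.0761), HFD_IO_1 (0.102) or HFD_IO_3 (0.0586). Ndufs8, an iron-sulfur subunit, changed by 0.88 and -0.85 (adjusted p = 0.00608 and 0.0101).

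Ndufs3 changed by 0.73 and -0.76 (adjusted p = 0.00928 and 0.011) and Ndufs7, which carries the last cluster before quinone, by 0.67 and -0.85 (0.0271 and 0.015). Ndufs1, the largest core subunit, rose by 0.58 (adjusted p = 0.014) but did not pass the test in HFD_IO against HFD (-0.34, SE 0.15, adjusted p = 0.111). With all libraries Ndufv2 passed neither (0.56 and -0.72, adjusted p = 0.117 and 0.0652): it was at 70.5 FPKM in CD_1 beside 34.8 and 40.8 in CD_2 and CD_3, and at 54.7, 66.3 and 89.6 in HFD, so the groups overlapped. Without CD_1 it passed both (0.85 and -0.72, adjusted p = 0.0105 and 0.0162), and its fall also passed without HFD_1 (0.0499), with voom (0.0485) and in the fit of 2 groups (0.0289).

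Among the 29 accessory subunits, which surround the core and are needed for assembly and stability, 24 rose and 27 then fell. Ndufa1 (chromosome X, 37187588 to 37191163, GRCm38), a small membrane subunit, had the largest rise in complex I. It was at 76.4, 86.6 and 78.8 FPKM in CD, against 177, 184 and 269 in HFD and 111, 129 and 77.1 in HFD_IO. The HFD values did not overlap with the others, while HFD_IO spread on both sides of the highest CD library. Ndufa1 changed by 1.35 (SE 0.21, adjusted p = 0.00221) and -0.99 (SE 0.21, adjusted p = 0.0108).

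Ndufb6, also a membrane arm subunit, was at 43.1, 48.0 and 46.3 FPKM in CD, against 91.7, 96.1 and 132 in HFD and 48.4, 51.3 and 45.0 in HFD_IO. It rose by 1.18 (SE 0.14, adjusted p = 0.000848) and fell by 1.11 (SE 0.14, adjusted p = 0.00171). It was 1 of 3 members still past the threshold in HFD against CD with the skeletal muscle covariate, with Ndufaf3 and Atp5g1. The largest fall in complex I was that of Ndufa5 (-1.13, adjusted p = 0.00386), at 66.6, 75.5 and 104 FPKM in HFD and 35.5, 39.6 and 33.5 in HFD_IO.

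Ndufb2 went another way. This accessory subunit was at 4.47, 2.85 and 2.83 FPKM in CD, against 2.99, 3.04 and 3.81 in HFD and 2.08, 1.63 and 1.40 in HFD_IO. CD and HFD overlapped (-0.02, adjusted p = 0.932), and HFD_IO lay below both (against CD -0.69, SE 0.17, adjusted p = 0.0125, against HFD -0.66, adjusted p = 0.0186). The second of these calls was lost without HFD_3 (adjusted p = 0.0679), HFD_IO_2 (0.0545) or HFD_IO_3 (0.0594). Its deposited length is 5628 bases, beside a median of 1587 for the members tested. Ndufab1, the mitochondrial acyl carrier protein, and Ndufa10 passed neither test with all libraries (0.38 and -0.52, and 0.61 and -0.51). Without CD_1, Ndufab1 passed both (0.62 and -0.52, adjusted p = 0.0164 and 0.0251). Its fall also passed in the fit of 2 groups (0.0454). Ndufa10 passed in HFD against CD without CD_1 (0.0377), without HFD_1 (0.0399) and with voom (0.0474).

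The 8 assembly factors named Ndufaf were the least expressed class, with a median of 5.43 FPKM in CD, against 8.29 in HFD and 5.26 in HFD_IO, beside 45.8, 76.9 and 40.8 for complex I subunits. Ndufaf5, which modifies a core subunit during assembly, was at 5.65, 4.44 and 5.10 FPKM in CD, against 7.03, 8.89 and 10.7 in HFD and 4.66, 5.67 and 3.77 in HFD_IO. HFD lay above the other libraries (0.69, SE 0.17, adjusted p = 0.0118, then -0.79, SE 0.17, adjusted p = 0.00994). Ndufaf3 changed by 0.62 and -0.56 (adjusted p = 0.00295 and 0.00693) and Ndufaf7, a methyltransferase, by 0.36 and -0.35 (0.0137 and 0.0198). Ndufaf1 passed neither (0.19 and -0.28), nor did Ndufaf6 (0.24 and -0.45, the latter past the threshold without HFD_1, -0.61, adjusted p = 0.02).

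**Figure D3:**
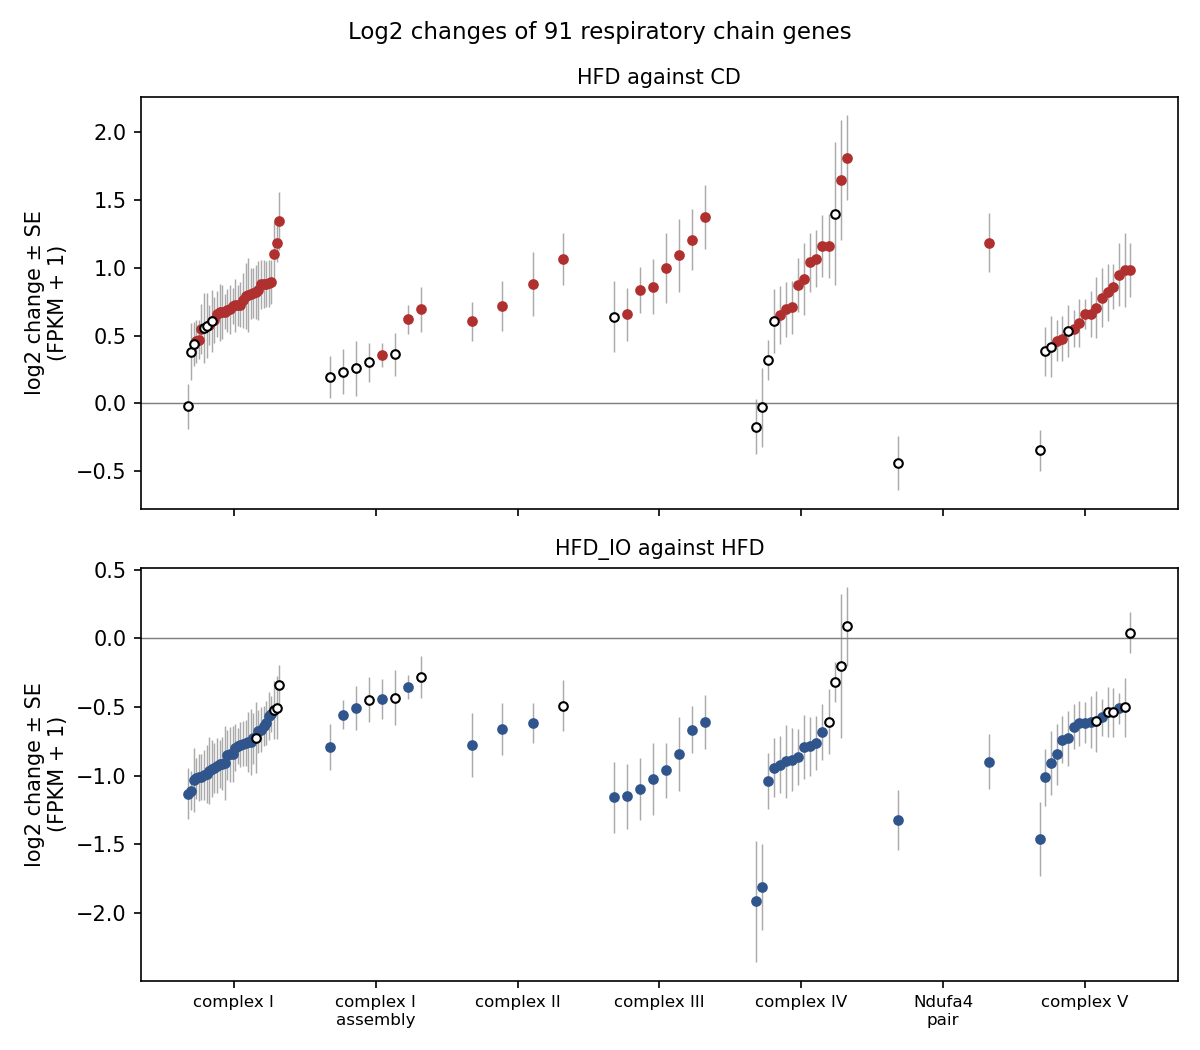
Log2 change with its standard error for each of the 91 tested members, ordered by size within each class, in HFD against CD (top) and HFD_IO against HFD (bottom), with filled points past an adjusted p of 0.05. In the upper panel 69 points are filled, all above 0, and in the lower panel 74, all below 0, with the widest spread in complex IV.

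Complex II is succinate dehydrogenase, which is also a citrate cycle enzyme and has no subunit encoded by mitochondrial DNA. All 4 subunits rose. Sdhd, a membrane anchor, was at 64.5, 51.6 and 53.2 FPKM in CD, against 97.0, 108 and 160 in HFD and 70.7, 84.7 and 69.4 in HFD_IO. HFD was above both other groups, and HFD_IO was above CD without passing that test (0.40, adjusted p = 0.137). It passed without HFD_3 (0.0458), with the brown adipocyte covariate (0.56, adjusted p = 0.0196) and without both CD_1 and HFD_3 (0.50, adjusted p = 0.0153). Sdhd changed by 1.07 (SE 0.19, adjusted p = 0.00334) and -0.66 (SE 0.19, adjusted p = 0.0301), the fall being lost without HFD_2 (0.0501), HFD_3 (0.0709), HFD_IO_1 (0.0883) or HFD_IO_3 (0.0843).

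Sdhb, the iron-sulfur subunit, was at 72.3, 45.1 and 44.7 FPKM in CD, against 79.9, 90.8 and 129 in HFD and 50.8, 68.2 and 52.4 in HFD_IO, and changed by 0.88 and -0.78 (adjusted p = 0.0172 and 0.0362). The rise was lost without CD_2 (adjusted p = 0.0625), CD_3 (0.0642) or HFD_3 (0.0543), and the fall without HFD_2 (0.0677), HFD_3 (0.118), HFD_IO_1 (0.108) or HFD_IO_3 (0.096). Sdhc, the other anchor, changed by 0.60 and -0.61 (0.0113 and 0.0146). Sdha, the flavoprotein whose upstream stretch is printed above, rose by 0.72 (adjusted p = 0.0155). In HFD_IO against HFD it did not pass (-0.49, SE 0.19, adjusted p = 0.0792), with 73.4, 77.4 and 118 FPKM in HFD and 53.3, 72.6 and 61.7 in HFD_IO.

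Complex III, the cytochrome bc1 complex, had the median furthest from 0 of the complexes in both comparisons, a description with no test between complexes. Uqcrq (chromosome 11, 53427922 to 53430831, GRCm38), a small subunit next to cytochrome b, was at 63.5, 53.5 and 53.7 FPKM in CD, against 112, 133 and 220 in HFD and 63.8, 80.5 and 57.0 in HFD_IO. All HFD values were above the rest, and HFD_IO overlapped with CD. The changes were 1.38 (SE 0.24, adjusted p = 0.00294) and -1.15 (SE 0.24, adjusted p = 0.00893). Uqcr11, at 77.8, 130 and 107 FPKM in CD, against 215, 209 and 300 in HFD and 99.9, 138 and 98.7 in HFD_IO, changed by 1.21 and -1.10 (adjusted p = 0.00411 and 0.00898).

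Unlike most members, Uqcr11 was lowest among CD libraries in CD_1. Uqcr10, a subunit near cytochrome c1, changed by 1.00 and -1.16 (adjusted p = 0.015 and 0.0117). Uqcrfs1, the Rieske iron-sulfur protein, was at 92.6, 58.6 and 52.4 FPKM in CD, against 110, 124 and 208 in HFD and 69.2, 88.4 and 78.7 in HFD_IO, and changed by 1.09 and -0.84 (0.013 and 0.0453). That fall was lost in each fit without a library except the one without CD_1 or HFD_1, with an adjusted p of 0.134 without HFD_3. The structural core subunits Uqcrc1 and Uqcrc2 changed by 0.66 and -0.61, and by 0.84 and -0.67 (adjusted p = 0.0277, 0.0473, 0.00564 and 0.02).

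Uqcrh, the hinge protein between cytochromes c1 and c, was the 1 member of complex III that did not pass in HFD against CD (0.64, SE 0.26, adjusted p = 0.0809). CD_1 was at 183 FPKM there, above HFD_1 at 155 and HFD_2 at 176. In HFD_IO it was at 98.4, 93.6 and 82.2, below all HFD libraries (-1.02, adjusted p = 0.0201). The rise passed without CD_1 (0.94, adjusted p = 0.00627), and the fall was lost without HFD_3 (0.0707), HFD_IO_2 (0.051) or HFD_IO_3 (0.0597).

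Complex IV, cytochrome c oxidase, held both the largest and some of the smallest changes. Of its 11 subunits used in most tissues 9 rose and 9 then fell (medians 0.87 and -0.86). Cox6a1 was the most abundant member per length, at 496, 481 and 452 FPKM in CD, against 744, 739 and 1211 in HFD and 389, 477 and 411 in HFD_IO. It changed by 0.87 (SE 0.20, adjusted p = 0.00961) and -1.04 (SE 0.20, adjusted p = 0.0071), and HFD did not overlap with the other groups.

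Cox8a, at 248, 365 and 328 FPKM in CD, against 602, 575 and 961 in HFD and 349, 435 and 347 in HFD_IO, changed by 1.16 and -0.88 (adjusted p = 0.0052 and 0.0213). Cox5a and Cox5b, nuclear subunits that bind the matrix face, rose by 1.16 and 1.04 (0.00563 and 0.0064). Cox5b then fell by 0.79 (0.0262), and Cox5a did not pass (-0.61, adjusted p = 0.0836, and 0.041 without CD_1). Cox4i1, the common form of subunit 4, changed by 0.71 and -0.76 (0.0211 and 0.0214), and its rise was lost without CD_2 (0.0688), CD_3 (0.0782) or HFD_3 (0.0629). Cox7a2l, which helps join complexes III and IV into supercomplexes, passed neither (0.32 and -0.32, adjusted p = 0.113 and 0.138).

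The muscle and brown fat isoforms Cox7a1 and Cox8b changed most of all members. Cox7a1 (ENSMUSG00000074218, chromosome 7, 30184144 to 30186078, GRCm38) was at 26.2, 22.4 and 18.8 FPKM in CD, against 53.9, 68.2 and 143 in HFD and 20.4, 26.6 and 20.3 in HFD_IO. Each HFD library was above the 6 others, and CD and HFD_IO overlapped (0.00, adjusted p = 0.999). It rose by 1.81 (SE 0.31, adjusted p = 0.00294) and fell by 1.81 (SE 0.31, adjusted p = 0.00455). With the brown adipocyte covariate the changes were 1.12 and -0.82, the latter with an adjusted p of 0.203, and with the skeletal muscle covariate neither passed (1.39 and -1.44, adjusted p = 0.0675 and 0.0613).

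Cox8b (ENSMUSG00000025488, chromosome 7, 140898945 to 140900446, GRCm38) was at 220, 135 and 90.2 FPKM in CD, against 282, 351 and 845 in HFD and 93.7, 156 and 104 in HFD_IO. HFD_3 stood far above the other HFD libraries and CD_1 above the other CD libraries, as in the erythroid and brown adipocyte markers. The changes were 1.65 (SE 0.44, adjusted p = 0.0174) and -1.92 (SE 0.44, adjusted p = 0.0132). The rise was lost without CD_2 (adjusted p = 0.0509) or CD_3 (0.0642). Both calls ended with the brown adipocyte covariate (0.74 and -0.62, adjusted p = 0.199 and 0.548) and with the skeletal muscle covariate (1.19 and -1.51, adjusted p = 0.226 and 0.139).

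Cox6a2, the heart and skeletal muscle form of subunit 6a, was at 0.640, 0.333 and 0.485 FPKM in CD, against 2.44, 4.05 and 2.44 in HFD and 0.716, 8.43 and 1.42 in HFD_IO. Its recovered reads ranged from 4 to 100. The 8.43 FPKM were in HFD_IO_2, where heart muscle markers summed to 43.7 FPKM beside 3.02 and 3.16 in HFD_IO_1 and HFD_IO_3. These markers summed to 15.8, 6.50 and 9.17 FPKM in CD. In HFD they summed to 18.1, 4.83 and 4.74, so they were highest in HFD_1 while Cox6a2 was highest in HFD_2. As fitted with all libraries it did not pass (1.40 in HFD against CD, SE 0.53, adjusted p = 0.061). The same comparison passed at a pseudocount of 0.1 (2.39, adjusted p = 0.0286), among protein-coding genes alone (0.0494), in the fit of 2 groups (0.00407), without HFD_IO_1 (0.0373) and without HFD_IO_2 (0.00266). Without HFD_IO_1 it also passed in HFD_IO against CD (1.69, adjusted p = 0.0347), and without HFD_IO_2 in HFD_IO against HFD (-0.94, adjusted p = 0.0296).

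Beyond the fits with brown adipocyte and skeletal muscle covariates, the part of fat, muscle and heart tissue in the levels of Cox7a1, Cox8b and Cox6a2 was not tested. Cox4i2, a form of subunit 4 known from lung and low oxygen, was at 7.11, 7.91 and 6.62 FPKM in CD, against 3.55, 10.3 and 9.06 in HFD and 7.34, 7.13 and 8.20 in HFD_IO, with no difference past the test (without HFD_1, 0.38 in HFD against CD, adjusted p = 0.0349). Cox6b2, a testis form, was at 6.38, 4.50 and 5.50 FPKM in CD, against 4.59, 3.83 and 5.83 in HFD and 1.76, 3.57 and 2.56 in HFD_IO. It was lower in HFD_IO than in CD (-0.85, SE 0.20, adjusted p = 0.0114) and than in HFD (-0.68, adjusted p = 0.035), the latter lost without CD_3 (0.0521), HFD_1 (0.067), HFD_3 (0.119), HFD_IO_1 (0.108) or HFD_IO_3 (0.0794).

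Ndufa4 and Ndufa4l2 moved in unlike ways. Ndufa4 (chromosome 6, 11900292 to 11907497, GRCm38) was at 101, 67.6 and 71.9 FPKM in CD, against 148, 160 and 248 in HFD and 71.9, 77.8 and 64.9 in HFD_IO, and changed by 1.18 (SE 0.22, adjusted p = 0.00377) and -1.33 (SE 0.22, adjusted p = 0.00383). Ndufa4l2 (chromosome 10, 127514967 to 127517154, GRCm38), its homolog known as a target of hypoxia signalling, was at 23.2, 23.4 and 23.4 FPKM in CD, against 18.2, 12.1 and 22.0 in HFD and 10.9, 7.75 and 7.55 in HFD_IO. The 3 groups did not overlap and stood in that order from high to low.

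The difference of Ndufa4l2 between HFD and CD did not pass as deposited (-0.44, SE 0.20, adjusted p = 0.111). It passed under TPM (-0.84, adjusted p = 0.0112), after quantile normalization (-0.62, adjusted p = 0.0375), after removal of the length trend (-0.73, adjusted p = 0.0206) and without HFD_3 (-0.62, adjusted p = 0.0429). In HFD_IO it was lower than in HFD (-0.90, SE 0.20, adjusted p = 0.0121) and than in CD (-1.34, SE 0.20, adjusted p = 0.0011), and the second of these held in each alternative fit, with values from -1.64 to -1.26. Smooth muscle markers were also lower in HFD_IO, 5 of 7 against HFD and 5 of 7 against CD, beside 14.5% and 15.0% of all tested genes. In HFD against CD they did not move with Ndufa4l2: 6 of 7 were above 0 (median 0.18), and none passed. Their part in the level of Ndufa4l2 was not tested.

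Isoform use was compared within each library as the log2 ratio of 2 genes, each as FPKM + 1, for 8 of 9 listed pairs. An exact permutation test over all 1680 assignments of libraries to groups cannot give a p below 0.00357. Past the threshold after adjustment over the 8 pairs were Ndufa4l2 to Ndufa4 (exact p = 0.00714), Cox6b2 to Cox6b1 (exact p = 0.0107) and Cox7a1 to Cox7a2 (exact p = 0.0107), each with an adjusted p of 0.0286.

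As a percentage of FPKM, Cox7a1 amounted to 22.2% ± 5.00 of Cox7a2 in CD, 52.0% ± 18.5 in HFD and 26.9% ± 3.77 in HFD_IO (SD, n = 3). The HFD libraries, at 39.1%, 43.8% and 73.2%, were above all others, of which the highest was 30.9% in HFD_IO_2. Ndufa4l2 amounted to 30.1% ± 6.19 of Ndufa4 in CD, 9.58% ± 2.45 in HFD and 12.2% ± 2.62 in HFD_IO, so that CD stood above the other groups and HFD and HFD_IO overlapped.

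Cox6b2 amounted to 4.02% ± 0.628, 1.66% ± 0.273 and 1.73% ± 0.488 of Cox6b1, again with CD above the rest. In HFD against CD Cox6b1 rose by 1.07 and Cox6b2 did not pass (-0.17) (limma, adjusted p = 0.00502 and 0.523). In HFD_IO against CD Cox6b2 was lower (-0.85) and Cox6b1 did not pass (0.15) (limma, adjusted p = 0.0114 and 0.635). The Cox6b2 to Cox6b1 ratio had an adjusted exact p of 0.0857 at a pseudocount of 0.1 and under TPM and 0.0571 after quantile normalization. No pair passed without HFD_3, HFD_IO_2 or HFD_IO_3 (exact permutation tests with fewer libraries), where the adjusted p of these 3 pairs was 0.0571, 0.05 and 0.0667. Cox7a1 to Cox7a2 also missed it without CD_1 (0.0762) or CD_3 (0.0667).

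The other pairs did not pass. Cox8b stood at 88.5% of Cox8a in CD_1 but at 37.1% and 27.5% in CD_2 and CD_3, at 46.9%, 61.1% and 88.0% in HFD and at 26.9% to 35.9% in HFD_IO (adjusted exact p = 0.2). The 3 genes for subunit c of complex V encode the same mature protein. Atp5g1 amounted to 13.6% ± 0.665, 15.2% ± 0.835 and 15.6% ± 2.35 of Atp5g3 and Atp5g2 to 110.0% ± 4.21, 98.2% ± 12.4 and 101.2% ± 18.0 (adjusted exact p = 0.392 and 0.471). Cox4i2 to Cox4i1 and Cox6a2 to Cox6a1 gave adjusted exact p-values of 0.186 and 0.2. In other settings Cox4i2 to Cox4i1 passed without HFD_2 (adjusted exact p = 0.0429) and Atp5g1 to Atp5g3 after quantile normalization (adjusted exact p = 0.0476).

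**Figure D4:**
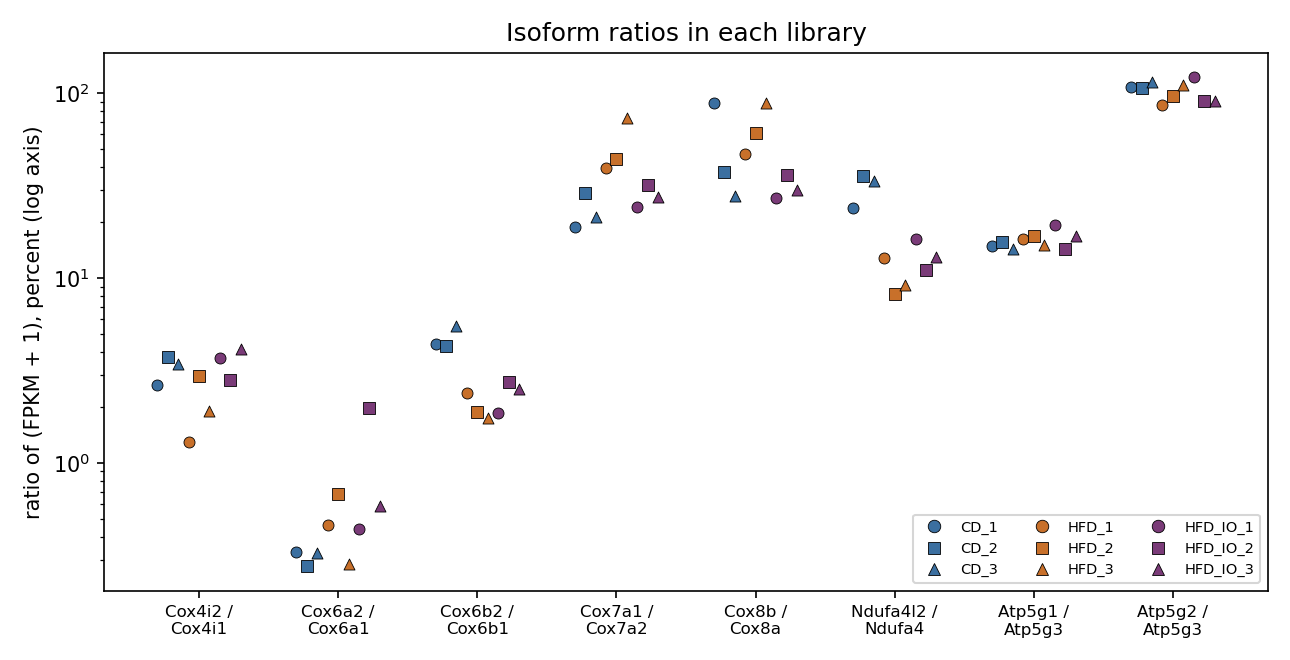
Ratio of the isoforms in each library as a percentage, each gene taken as FPKM + 1, on a log axis, 1 point per library. Cox7a1 to Cox7a2 is highest in the 3 HFD libraries, Ndufa4l2 to Ndufa4 and Cox6b2 to Cox6b1 are highest in the 3 CD libraries, and the subunit c pairs lie close together.

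Complex V, the ATP synthase, had 13 of 17 members that rose in HFD. The other 4 were Atp5c1, the gamma subunit of the central stalk (0.53, adjusted p = 0.0511), Atp5l (0.42, adjusted p = 0.165), Atp5g2 and Atp5s, whose groups overlapped. Atp5b, the catalytic beta subunit, was at 156, 146 and 127 FPKM in CD, against 230, 264 and 375 in HFD and 145, 202 and 170 in HFD_IO. HFD was above both groups, and HFD_IO overlapped with CD. It changed by 0.98 (SE 0.20, adjusted p = 0.00559) and -0.73 (SE 0.20, adjusted p = 0.0252), the fall being lost without HFD_2 (0.0507), HFD_3 (0.0706), HFD_IO_1 (0.0873) or HFD_IO_3 (0.0619). Atp5a1, the alpha subunit, changed by 0.86 and -0.64 (adjusted p = 0.00435 and 0.0197), and Atp5f1, in the peripheral stalk, rose by 0.78 (0.0197) and did not pass in HFD_IO against HFD (-0.50, adjusted p = 0.109, but 0.0212 without CD_1 and 0.0418 in the fit of 2 groups).

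Atp5k, the subunit e that helps the synthase form dimers, was at 88.4, 55.7 and 46.9 FPKM in CD, against 114, 93.3 and 172 in HFD and 41.5, 50.9 and 39.7 in HFD_IO. It had the largest fall of the complex (-1.46, SE 0.27, adjusted p = 0.00601) after a rise of 0.98 (adjusted p = 0.0196) that was lost without CD_2 (0.0637), CD_3 (0.0717) or HFD_3 (0.0591). Atp5j2, subunit f, changed by 0.82 and -1.01 (0.0145 and 0.00893). Of the subunit c genes Atp5g1 and Atp5g3 rose by 0.66 and 0.55 (0.00278 and 0.013) and Atp5g2 did not pass (0.38, adjusted p = 0.122). Atp5s, named coupling factor B, was at 5.09, 3.17 and 4.20 FPKM in CD, against 2.52, 3.31 and 3.23 in HFD and 3.16, 2.87 and 3.36 in HFD_IO (-0.35, adjusted p = 0.0924, and 0.04, adjusted p = 0.853). It was lower in HFD than in CD under TPM (-0.76, adjusted p = 0.00545), after removal of the length trend (-0.58, adjusted p = 0.0114) and without CD_2 (-0.49, adjusted p = 0.0324).

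Gene length moved with these results, since the members are short. Tested protein-coding genes were split into 5 equal classes by length. In the shortest (27 to 2385 bases) the 2351 other protein-coding genes had a median change of 0.40 in HFD against CD, with 43.3% higher. The 66 members there had 0.72, with 52 higher. In HFD_IO against HFD the medians were -0.26 for other genes, with 30.2% lower, and -0.85 for members, with 56 lower. In the next class (2386 to 3609 bases) 13 members had medians of 0.61 and -0.67 beside 0.21 and -0.10 for other genes. After removal of each library's trend on length, 45 members were higher in HFD against CD and 54 lower in HFD_IO against HFD, with medians of 0.51 and -0.58. Over all tested genes 2303 were then higher and 1486 lower in these comparisons. Many members have processed gene copies elsewhere in the genome, and how reads shared with such copies were counted is not given in the sources used here.

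**Figure D5:**
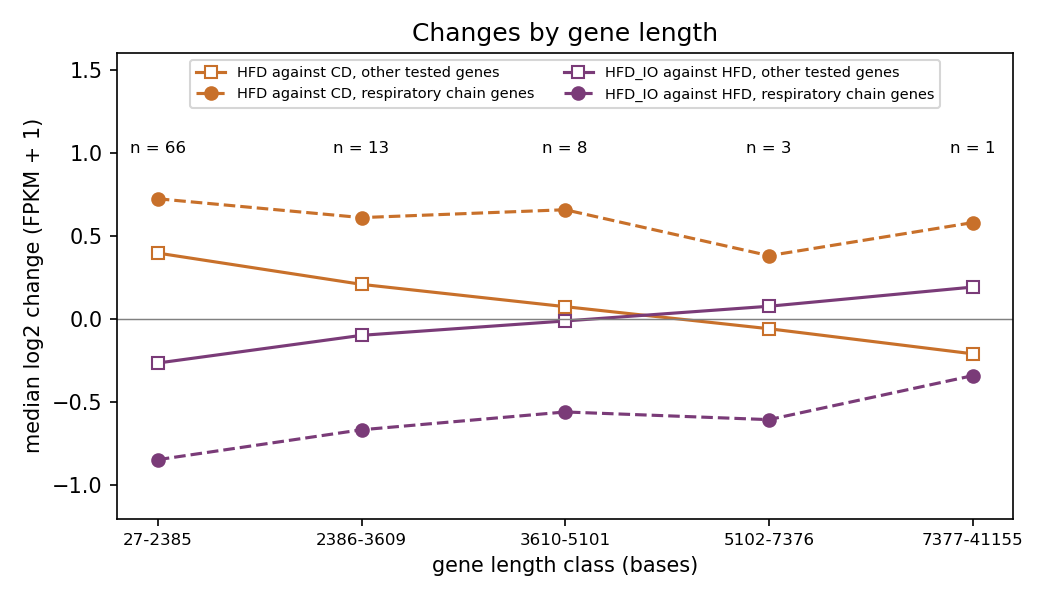
Median log2 change by gene length class (horizontal axis, in bases) for the members (filled, with their number) and the other tested protein-coding genes (open) in HFD against CD and HFD_IO against HFD. The members lie further from 0 than other genes of their length in the 3 shorter classes, and the last classes hold 3 members and 1.

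Genes around the chain were counted from lists of the pathway. For all lists below, the shares over all tested genes were 21.8% higher and 17.6% lower in HFD against CD. In HFD_IO against HFD they were 14.1% higher and 14.5% lower. Cycs, cytochrome c, was at 18.4, 14.2 and 13.9 FPKM in CD, against 32.5, 39.9 and 55.3 in HFD and 17.7, 23.5 and 18.0 in HFD_IO (1.38, adjusted p = 0.00158, then -1.05, adjusted p = 0.00692). Of 12 electron carrier and entry genes 6 rose and 4 then fell, with Etfb of fatty acid oxidation at 0.88 and -1.23 (adjusted p = 0.0425 and 0.0161). In the citrate cycle 8 of 13 rose (median 0.74) and 6 fell (median -0.73), led by Idh3a at 0.99 and Suclg1 at -0.89 (adjusted p = 0.0163 and 0.022), and Cs passed neither test (0.47 and -0.27).

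Assembly factors outside the Nduf names had 10 that rose and 1 that fell of 29, and 11 that fell in HFD_IO against HFD. Uqcc3 of complex III rose by 1.02 (adjusted p = 0.00182). Cox17, which carries copper to complex IV, fell by 0.89 (adjusted p = 0.00373), at 2.48, 1.58 and 2.01 FPKM in CD and 0.782, 0.435 and 0.672 in HFD.

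Regulators of mitochondrial biogenesis gave 1 that rose and 3 that fell of 11 in HFD against CD, and none passed in HFD_IO against HFD. With 21.8% of all tested genes higher and 17.6% lower in HFD against CD, these counts do not set a list of 11 apart. Esrra, a nuclear receptor that acts on respiratory genes, was at 12.2, 16.3 and 15.1 FPKM in CD, against 25.6, 23.5 and 26.5 in HFD and 20.0, 25.7 and 23.1 in HFD_IO. It rose by 0.76 (adjusted p = 0.00294) and did not pass in HFD_IO against HFD (-0.14, adjusted p = 0.46), in which most members fell. Perm1, Pprc1 and Nrf1 fell by 0.88, 0.62 and 0.37 in HFD against CD (adjusted p = 0.00106, 0.00659 and 0.0106).

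The 13 transcripts of mitochondrial DNA gave 2 that rose (mt-Co2 and mt-Co3) and, in HFD_IO against HFD, 1 that fell. Over all tested genes 21.8% rose and 14.5% fell in these comparisons, so the counts do not set this list apart. The 2 that rose were weak, at 53.4 to 219 FPKM (mt-Co2) and 20.5 to 433 (mt-Co3), beside 5301 to 13082 for mt-Co1. The reason for their low level was not tested. mt-Co3 was at 63.5, 20.5 and 30.3 FPKM in CD, against 78.1, 232 and 433 in HFD and 50.8, 36.6 and 63.0 in HFD_IO (2.51, adjusted p = 0.0107, then -2.00, adjusted p = 0.0341). Their summed FPKM was 3.52 ± 0.379 times that of the members in CD, 2.80 ± 0.372 in HFD and 4.66 ± 1.20 in HFD_IO (SD, n = 3), with 5.99 in HFD_IO_1. Ribosomal protein genes were counted for comparison. Of 77 mitochondrial ones 45 rose and 1 fell (median 0.47), then 41 fell (median -0.44). Among 96 tested entries with cytosolic ribosomal protein names, which include some kinases and other genes of like name, 38 rose and 4 fell (median 0.39), then 3 rose and 35 fell (median -0.48).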

How the data were processed

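RNA was sequenced from 9 aortas, with an NEBNext library kit per the labels' protocols. The authors deposited FPKM per gene with gene lengths. The submitters' processing notes name HISAT2 and the human build hg38, although identifiers and coordinates are mouse (GRCm38). No source used here gives the counting tool, its annotation or a strand setting, so reads of overlapping antisense genes cannot be told apart. Column numbers differ from those in the sample titles, so each column was assigned to its group alone. FPKM times length gave whole reads (tolerance 0.05) for 100% of values. These were used for voom, with the size figures of the FPKM as library sizes, and for the read numbers given here. They did not enter the main model.

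Genes with at least 1 FPKM in at least 3 libraries entered a single limma 3.58.1 model (R 4.3.3) of log2(FPKM + 1), which understates changes of weak genes, with 3 group means, a mean-variance trend and Benjamini-Hochberg adjustment over all tested genes at 0.05. Its code was tested on simulated data. The genes named were, per class, the 2 with the largest and 2 with the smallest change in each of the first 2 comparisons, all isoform pairs, core subunits, members below the filter and, in each list of other respiratory genes, the 2 most positive and 2 most negative. Cox7a2l, Cs, Nrf1, mt-Co2, mt-Co3, Atp5c1, Atp5l and Myh2 were chosen after their values were seen. The members and lists were chosen with earlier results of these data known. Promoter sequences are from RefSeq. Alternatives were pseudocount 0.1, no filter, an FPKM minimum of 5, TPM, quantile normalization, removal of length trends, fits of 2 groups, covariates, voom and leaving out each library. Leaving out CD_1 and HFD_3 together and protein-coding genes alone were added after seeing the data. The values of 1 member, counted with its class, are not reported here.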

Additional observations from a re-analysis of the deposited data

How the results depend on the processing

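In counts of members past an adjusted p of 0.05 (limma), those higher in HFD against CD numbered 69, and 30 under TPM, 30 after quantile normalization, 45 after removal of the length trend, 14 and 3 with the brown adipocyte and skeletal muscle covariates, and 37 to 79 with 1 library left out. Those lower numbered 0, and 2 under TPM, 1 after quantile normalization, 2 after removal of the length trend and 0 to 1 with 1 library left out. Those lower in HFD_IO against HFD numbered 74, and 49 with no filter, 0 and 3 with the covariates, and 44 to 82 with 1 library left out. Those higher in HFD_IO against CD numbered 0, and 3 with the brown adipocyte covariate, 6 without both CD_1 and HFD_3 (added after seeing the data) and 0 to 2 with 1 library left out. Those lower numbered 3, and 18 under TPM and 6 after quantile normalization. Isoform pairs past the threshold numbered 3, and 0 to 4 with 1 library left out. Fewer libraries allow fewer assignments in that exact test, and without CD_2 or HFD_1 the 3 pairs kept an adjusted exact p of 0.0286. The cause of these shifts was not tested. Calls over all genes shifted as well. Those higher in HFD against CD numbered 3030, and 1018 under TPM, 2224 after quantile normalization, 2303 after removal of the length trend and 2043 to 3316 with 1 library left out. Those lower in HFD_IO against HFD numbered 2013, and 1384 of 30663 with no filter and 1093 to 2507 with 1 library left out.

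Under TPM the median change in HFD against CD was -0.029 for the complex I assembly factors and -0.023 for Ndufa4 and Ndufa4l2, beside 0.33 and 0.37 as deposited. Cox4i2 in HFD against CD was at -0.03, with -0.28 to 0.38 over fits with 1 library left out, the highest without HFD_1 (adjusted p = 0.0349). No paired analysis was possible because the sample titles number the aortas without repeats, and the numbers 1 to 3 that recur in the columns of each group do not match the titles and are not said to mark a shared mouse, batch or day. Depth was similar across libraries, and the weakest tested members rest on few reads (4 to 100 for Cox6a2).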
